A study of Homo sapiens with 15 samples.

Results

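A set of 10 genes of the NRF2 antioxidant program and of the aldo-keto reductase family was followed in 2 human clear cell renal cell carcinoma (ccRCC) lines with and without ANGPTL4. They were chosen by symbol, with earlier results of these data known, as NQO1, TXNRD1, SRXN1, GCLM, GCLC, HMOX1, AKR1B10, AKR1C1, AKR1C2 and AKR1C3. All 10 had a value in every library, among 16296 genes in the CAKi-1 table and 16188 in the 786O table. The experiment was bulk RNA sequencing of CAKi-1 cells, which carry wild-type VHL, and of 786O cells, in which VHL is mutant. ANGPTL4 was disrupted with CRISPR-Cas9 in each line, and single clones that had lost its mRNA were combined to give the knockout cells, called A4KO. The comparison asks how gene expression differs once ANGPTL4, a secreted inhibitor of lipoprotein lipase, is lost.

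CAKi-1 gave 9 libraries, 4 of WT and 5 of A4KO cells, and 786O gave 6, with 3 of each genotype. All cells were untreated log-phase cultures. The 786O WT cells were a mixture of clones that had gone through the same procedure and kept ANGPTL4. The study's methods give the CAKi-1 WT cells as the parental line, while the series text describes combined clones, and if they are parental, the knockout and the cloning cannot be told apart in CAKi-1. The sources do not say whether the replicates were separate cultures, so p-values measure only the spread between these libraries. ANGPTL4 itself was lower in both A4KO groups. It lay at 74.9, 83.2, 86.9 and 71.7 TPM, the transcript share scaled to a fixed library total, in CAKi-1 WT against 7.26, 2.87, 2.87, 6.47 and 2.90 TPM in CAKi-1 A4KO, and at 20.6, 17.6 and 18.1 TPM in 786O WT against 2.19, 2.17 and 1.86 TPM in 786O A4KO. Within CAKi-1 A4KO, libraries 1 and 4 stood apart from libraries 2, 3 and 5. The median absolute log2 difference over genes was 0.202 to 0.232 for pairs across these sets and 0.0785 to 0.101 for pairs within one. With A4KO libraries 2, 3 and 5 alone the log2 fold changes in CAKi-1 were -1.06 for TXNRD1, -0.34 for SRXN1, -0.57 for NQO1, -0.57 for GCLM, -0.06 for GCLC, 0.66 for HMOX1, -1.11 for AKR1B10, -0.12 for AKR1C1, -0.27 for AKR1C2 and 0.44 for AKR1C3, to be set beside those below from all libraries. Of 8 renal epithelial and ccRCC markers, 6 were in the CAKi-1 table, which lacks PAX2 and CA9, and 8 in the 786O table. Their summed level was 5271 to 6330 TPM in CAKi-1 WT, 2737 to 3668 TPM in CAKi-1 A4KO, 5721 to 5924 TPM in 786O WT and 4258 to 4309 TPM in 786O A4KO. Most of it was VIM, at 3078 to 3297, 2002 to 2515, 4426 to 4640 and 3401 to 3448 TPM, followed in CAKi-1 by KRT8, at a mean of 1513 TPM in WT and 425 TPM in A4KO, and KRT18, at 995 and 342 TPM. Means of EPCAM were also lower in A4KO in both lines (4.22 and 2.79 TPM in CAKi-1, 17.4 and 3.12 TPM in 786O), while CDH6 was at 8.89 and 17.1 TPM in CAKi-1 and 213 and 43.8 TPM in 786O, and PAX2 at 11.2 and 41.0 TPM in 786O. PAX8 was at 172 and 186 TPM in CAKi-1 and 231 and 152 TPM in 786O, and CA9 at 7.54 and 0.287 TPM in 786O. The 4 fibroblast markers summed to 24.1 to 33.6 TPM in CAKi-1 WT and 48.1 to 72.3 TPM in CAKi-1 A4KO, and to 10.2 to 14.2 TPM in 786O WT and 8.92 to 11.4 TPM in 786O A4KO. From WT to A4KO the mean of COL1A1 went from 10.2 to 36.2 TPM in CAKi-1 and that of LUM from 3.63 to 1.58 TPM, and in 786O LUM went from 7.93 to 1.28 TPM and PDGFRB from 0.407 to 4.69 TPM. CD68 was by far the larger of the 2 leukocyte markers present, at 49.1 to 59.9 TPM over all CAKi-1 libraries, 42.4 to 43.6 TPM in 786O WT and 19.3 to 20.9 TPM in 786O A4KO. The endothelial marker PECAM1 was at 0.209 to 0.555 TPM in CAKi-1 WT, 1.54 to 6.17 TPM in CAKi-1 A4KO, 0.85 to 1.44 TPM in 786O WT and 0.411 to 0.563 TPM in 786O A4KO. Whether these markers bear on the results was not tested.

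NRF2, encoded by NFE2L2, is a basic leucine zipper transcription factor that is kept low by KEAP1, an adaptor that presents it to a CUL3 and RBX1 ubiquitin ligase for degradation. Electrophiles and oxidants modify KEAP1, NRF2 then accumulates, pairs with a small MAF protein and binds antioxidant response elements (AREs) near genes of glutathione and thioredoxin metabolism, quinone reduction and detoxification. BACH1 binds many of the same elements as a repressor and is released by heme, and HMOX1 is its best known target. Since NRF2 is regulated mainly through protein stability, its mRNA level alone says little of its activity. In the kidney the pathway protects tubular cells from oxidative damage, and KEAP1 or NFE2L2 mutations occur in some renal cancers.

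Promoter sequences were searched for the ARE core TGACNNNGC on both strands, because most of the genes are known NRF2 targets. RefSeq windows of GRCh38.p14, from 250 bases before to 50 bases after the transcript start, were matched by symbol for 8 of the 10 genes, in 10 windows. AKR1B10 and HMOX1 had no window in the table. The core was found in 3 of these windows, belonging to GCLM and TXNRD1, and in 13.3% of all 35116 windows. None of the matches overlapped a TGANTCA word, the AP-1 motif, which was present in 7.71% of all windows. These 3 windows are printed on the strand of the gene with the matched bases in capitals. The GCLM window lies at chr1:93909381-93909680 on the minus strand, and the match at bases -34 to -26 from the start reads TGACTAAGC on the opposite strand. The upstream TXNRD1 window, chr12:104215529-104215828 on the plus strand, has TGACTTCGC at -99 to -91 and, on the opposite strand, TGACGGAGC at -8 to 1. The downstream TXNRD1 window, chr12:104286782-104287081, has TGACAAAGC on the opposite strand at -102 to -94. A match is only a description of the letters, and a window without one says nothing of binding elsewhere.
GCLM: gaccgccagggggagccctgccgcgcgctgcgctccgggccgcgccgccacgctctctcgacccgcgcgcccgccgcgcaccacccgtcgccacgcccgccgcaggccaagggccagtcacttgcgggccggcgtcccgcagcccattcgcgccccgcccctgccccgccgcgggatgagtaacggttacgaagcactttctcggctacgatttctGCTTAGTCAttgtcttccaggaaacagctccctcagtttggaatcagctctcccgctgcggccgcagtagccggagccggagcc
TXNRD1 upstream start: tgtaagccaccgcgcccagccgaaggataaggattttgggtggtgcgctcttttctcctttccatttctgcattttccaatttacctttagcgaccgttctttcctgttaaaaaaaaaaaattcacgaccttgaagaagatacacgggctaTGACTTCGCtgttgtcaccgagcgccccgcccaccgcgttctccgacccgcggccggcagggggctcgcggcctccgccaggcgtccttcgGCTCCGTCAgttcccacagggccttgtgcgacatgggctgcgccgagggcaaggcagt
TXNRD1 downstream start: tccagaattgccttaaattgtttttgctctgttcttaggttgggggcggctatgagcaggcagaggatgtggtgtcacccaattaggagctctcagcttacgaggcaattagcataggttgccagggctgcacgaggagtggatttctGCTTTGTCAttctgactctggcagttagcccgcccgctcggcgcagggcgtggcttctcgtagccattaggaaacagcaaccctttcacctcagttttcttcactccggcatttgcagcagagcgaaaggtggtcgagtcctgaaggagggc

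The AKR1C genes lie side by side on chromosome 10, and parts of their sequences are alike. The windows of AKR1C1 at chr10:4963165-4963464 on the plus strand and AKR1C2 at chr10:5003808-5004107 on the minus strand shared an unbroken run of 245 bases. It lies before both transcript starts, so it describes the promoters and says nothing of the reads. The run is printed in lower case with the bases outside it in capitals.
AKR1C1: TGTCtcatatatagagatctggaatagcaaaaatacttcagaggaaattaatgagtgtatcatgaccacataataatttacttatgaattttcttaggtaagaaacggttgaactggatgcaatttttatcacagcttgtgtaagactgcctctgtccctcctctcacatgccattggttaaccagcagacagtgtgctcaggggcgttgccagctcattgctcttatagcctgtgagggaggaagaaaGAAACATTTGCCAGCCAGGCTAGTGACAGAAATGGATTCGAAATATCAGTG
AKR1C2: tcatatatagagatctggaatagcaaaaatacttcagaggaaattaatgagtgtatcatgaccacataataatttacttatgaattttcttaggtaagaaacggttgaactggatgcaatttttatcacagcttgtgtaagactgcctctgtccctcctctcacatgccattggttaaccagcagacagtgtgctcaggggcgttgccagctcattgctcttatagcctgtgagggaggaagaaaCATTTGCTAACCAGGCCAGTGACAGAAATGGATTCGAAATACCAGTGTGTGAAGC

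The likeness went on into the transcripts. Of all words of 31 bases in the canonical AKR1C2 transcript, 58.2% also occurred in AKR1C1 transcripts, and 26.8% of those of AKR1C3 occurred in another gene. For AKR1B10 the share was 36.2%, of which the largest part was with AKR1B15, and 90.6% of SRXN1 words were also in a readthrough gene model that overlaps it. No word of TXNRD1, GCLC or HMOX1 was shared with another gene, and NQO1 and GCLM shared 5.3% and 6.06%. How reads are split between AKR1C1, AKR1C2 and AKR1C3 is therefore less certain than their sum.

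Loss of ANGPTL4 went with opposite changes of 5 of the 10 transcripts in the 2 lines. The thioredoxin and quinone enzymes TXNRD1, SRXN1 and NQO1 were lower in CAKi-1 A4KO and higher in 786O A4KO, while HMOX1 and AKR1C3 were higher in CAKi-1 A4KO and lower in 786O A4KO. AKR1B10 was lower in A4KO cells of both lines. The opposite signs of NQO1 did not hold once neighbouring genes were subtracted. A gene passed where its adjusted p from limma on log2(TPM + 1) was 0.05 or less. In CAKi-1, 7 of the 10 genes passed, 2 higher and 5 lower, against 39.0% of all genes tested, with 17.9% higher and 21.1% lower. In 786O, 7 of the 10 passed, 3 higher and 4 lower, against 61.0% of all genes, with 27.5% higher and 33.5% lower. In opposite directions 5 passed in both lines, as did 16.0% of the 15247 genes in both tables, and 1 passed in both in the same direction, as did 12.0%. Since the 10 were chosen with earlier results of these data known, such shares describe them and do not test them as a set. The median log2 fold change of the 10 was -0.28 in CAKi-1 and -0.29 in 786O, beside -0.01 and -0.03 over all genes. No overlap between the genotypes was seen for 6 of the 10 genes in CAKi-1, where this held for 35.9% of all genes, and for 9 of the 10 in 786O, where it held for 66.9%. With 3 libraries against 3, the exact two-sided permutation test of a single gene cannot go below 0.1, so in 786O only the fit across all genes can pass the threshold. With 4 against 5 its smallest p is 0.0159, which was reached by the 6 genes without overlap in CAKi-1.

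**Figure D1:**
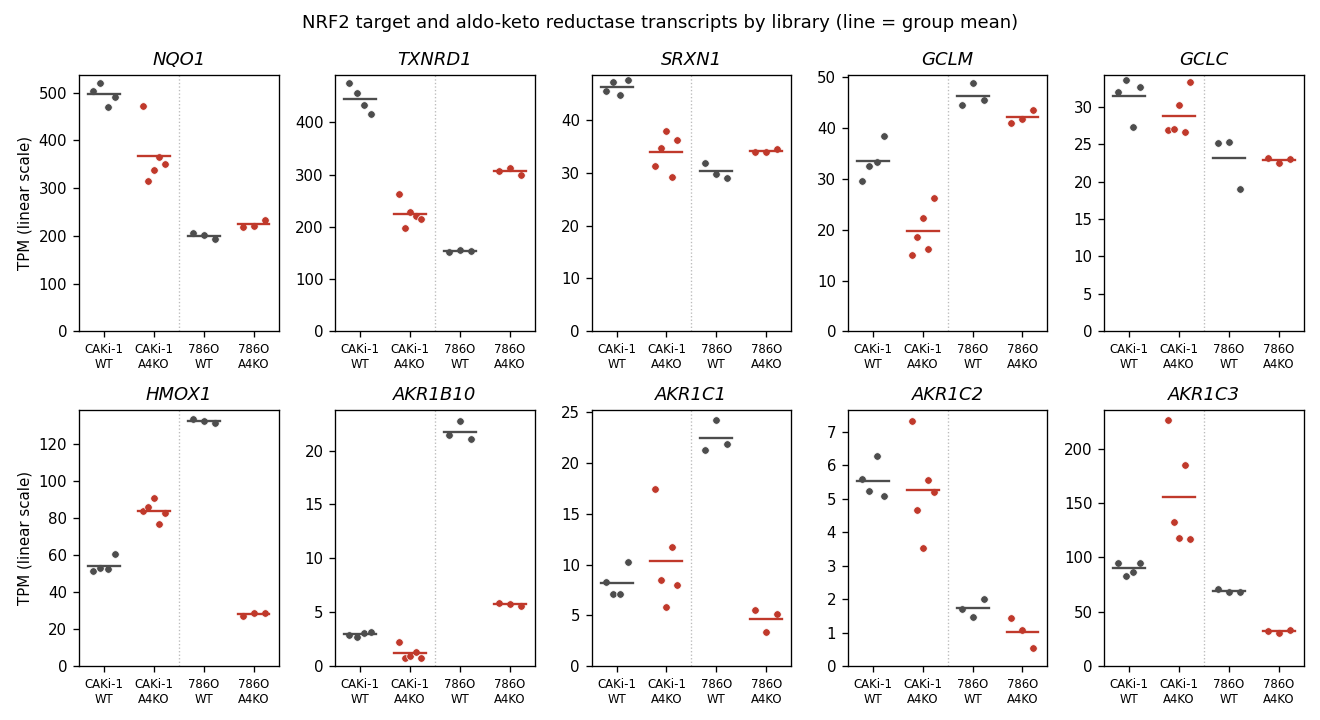
Expression of the 10 genes in each of the 15 libraries, in TPM on a linear axis that starts at 0, with points for libraries (WT grey, A4KO red) and lines for group means. TXNRD1 fell from a mean of 445 to 225 TPM in CAKi-1 and rose from 154 to 306 TPM in 786O, and HMOX1 moved the other way in both lines.

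TXNRD1 encodes the cytosolic thioredoxin reductase, the selenoenzyme that keeps thioredoxin reduced with NADPH. In CAKi-1 its transcripts were at 475, 455, 434 and 416 TPM across WT and 263, 197, 228, 220 and 215 TPM across A4KO. In 786O they were at 152, 156 and 153 TPM across WT and 308, 313 and 299 TPM across A4KO. Every CAKi-1 A4KO library was thus below every CAKi-1 WT library, and every 786O A4KO library above every 786O WT library. TXNRD1 fell 1.98-fold in CAKi-1 (log2 fold change -0.99, SE 0.0822, limma adjusted p = 4.1e-05) and rose 1.99-fold in 786O (log2 fold change 0.99, SE 0.0359, limma adjusted p = 4.1e-06). The WT libraries of CAKi-1 held more TXNRD1 than those of 786O and the A4KO libraries less, although the tables were made separately and levels were not tested between them. The log2 fold change in CAKi-1 minus that in 786O was -1.97 (95% interval -2.21 to -1.74, limma adjusted p = 4.7e-09).

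SRXN1, the sulfiredoxin that repairs overoxidised peroxiredoxins, showed the same pair of directions at smaller size. It was at 45.4, 47.2, 44.7 and 47.5 TPM in CAKi-1 WT and at 31.2, 34.7, 37.8, 29.2 and 36.2 TPM in CAKi-1 A4KO. In 786O it was at 31.9, 29.8 and 29.1 TPM across WT and 33.9, 34.0 and 34.4 TPM across A4KO. The groups did not overlap in either line. SRXN1 fell by 0.44 on the log2 scale in CAKi-1 (SE 0.0772, limma adjusted p = 0.002) and rose by 0.17 in 786O (SE 0.0441, limma adjusted p = 0.016). Without 786O WT library 2 the 786O call was lost, with a change of 0.16 and a limma adjusted p of 0.052. The difference between the lines was -0.61 (limma adjusted p = 0.0002).

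NQO1 encodes a quinone reductase that uses NADH or NADPH and is a standard readout of NRF2. It was the most abundant of the 10 transcripts in CAKi-1, at 504, 521, 470 and 492 TPM in WT and 471, 315, 339, 366 and 351 TPM in A4KO. In 786O it was at 205, 202 and 193 TPM across WT and 220, 220 and 233 TPM across A4KO. A4KO library 1 of CAKi-1 lay within the WT range and the other 4 A4KO libraries below it. NQO1 fell by 0.44 in CAKi-1 (SE 0.107, limma adjusted p = 0.010, exact permutation p = 0.0317) and rose by 0.16 in 786O (SE 0.0441, limma adjusted p = 0.018). With CAKi-1 A4KO libraries 2, 3 and 5 alone the fall was 0.57. The rise in 786O lost its call without WT library 3 (0.14, limma adjusted p = 0.056) and without A4KO library 3 (0.13, limma adjusted p = 0.053).

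The position of NQO1 on chromosome 16 (hg38 16:69706996-69726668, minus strand) matters for that comparison, because other genes of the same chromosome moved too. Among 589 genes of chromosome 16 the median log2 fold change in 786O was 0.32, beside -0.04 over all positioned genes with a mean log2 value of at least 1. The median of up to 25 expressed genes on each side of NQO1 was 0.39 in 786O and -0.20 in CAKi-1. After this neighbour median was subtracted, NQO1 was at -0.23 in 786O (limma adjusted p = 0.0049) and at -0.24 in CAKi-1 (limma adjusted p = 0.12), and the difference between the lines was -0.01 (limma adjusted p = 0.95) in place of -0.61 (limma adjusted p = 0.0024). The rise of NQO1 in 786O and its difference between the lines thus hold only for values that are not set against neighbouring genes. What moves these neighbouring genes was not tested. For TXNRD1, SRXN1, HMOX1 and AKR1C3 the same subtraction kept each direction and each call in both lines, although SRXN1 then rose by 0.46 in 786O (limma adjusted p = 0.00012) and differed between the lines by -0.95.

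GCLM and GCLC encode the modifier and catalytic subunits of glutamate-cysteine ligase, the rate-limiting enzyme of glutathione synthesis. GCLM was at 29.6, 32.5, 33.3 and 38.4 TPM in CAKi-1 WT and at 15, 18.6, 22.3, 16.2 and 26.3 TPM in CAKi-1 A4KO. All 5 A4KO libraries were below all 4 WT libraries, and GCLM fell 1.7-fold (log2 fold change -0.76, SE 0.154, limma adjusted p = 0.0044). In 786O GCLM was at 44.6, 48.8 and 45.5 TPM across WT and 41.0, 41.8 and 43.6 TPM across A4KO. These groups did not overlap either, but the difference of -0.13 (95% interval -0.25 to -0.01) had a limma adjusted p of 0.055, and with neighbouring genes subtracted it was -0.02 (limma adjusted p = 0.77). Its effect differed between the lines by -0.63 (limma adjusted p = 0.018).

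GCLC, by contrast with its partner, passed in neither line. Its level was 32.0, 33.5, 27.3 and 32.7 TPM in CAKi-1 WT, 26.9, 27.0, 30.2, 26.7 and 33.3 TPM in CAKi-1 A4KO, 25.1, 25.3 and 19.0 TPM in 786O WT and 23.1, 22.4 and 23 TPM in 786O A4KO. The groups overlapped in both lines. The log2 fold change of GCLC was -0.12 in CAKi-1 (95% interval -0.31 to 0.07, limma adjusted p = 0.30) and -0.01 in 786O (95% interval -0.27 to 0.26, limma adjusted p = 0.96). One library decided the 786O value, since without WT library 3, the lowest at 19.0 TPM, it was -0.14 with a limma adjusted p of 0.034.

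HMOX1, the inducible heme oxygenase that degrades heme to biliverdin, iron and carbon monoxide, had the widest split of the 10 genes. It was at 51.3, 52.8, 52.6 and 60.5 TPM in CAKi-1 WT and at 83.6, 85.6, 90.5, 76.4 and 82.7 TPM in CAKi-1 A4KO. In 786O it was at 133, 132 and 131 TPM across WT and 27.1, 28.9 and 28.5 TPM across A4KO. No library of one group reached the other group in either line. HMOX1 rose 1.54-fold in CAKi-1 (log2 fold change 0.62, SE 0.0668, limma adjusted p = 0.00017) and fell 4.69-fold in 786O (log2 fold change -2.19, SE 0.0382, limma adjusted p = 3.7e-07). With a difference between the lines of 2.81 (95% interval 2.62 to 3.00, limma adjusted p = 2.4e-11), the order of the lines was turned over. HMOX1 was lower in CAKi-1 WT than in 786O WT and higher in CAKi-1 A4KO than in 786O A4KO. Neighbouring genes of HMOX1 on chromosome 22 had a median change of -0.24 in 786O, and HMOX1 was at -1.95 after it was subtracted.

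**Figure D2:**
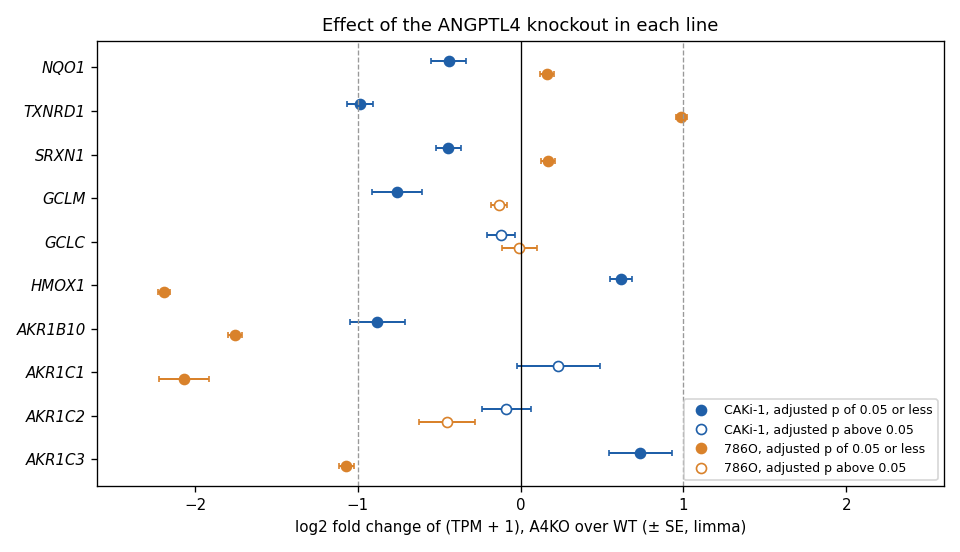
Log2 fold change of (TPM + 1), A4KO over WT, for each gene in CAKi-1 (blue) and 786O (orange), with bars for the standard error from limma. Filled points passed an adjusted p of 0.05, open points did not, and dashed lines mark a log2 fold change of 1 either way. TXNRD1, SRXN1 and NQO1 lie left of 0 in CAKi-1 and right of it in 786O, and HMOX1 and AKR1C3 the reverse.

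Aldo-keto reductases reduce aldehydes and ketones with NADPH. AKR1B10 acts on retinal and lipid aldehydes and is a common marker of NRF2 activity in tumors, and AKR1C1, AKR1C2 and AKR1C3 also act on steroids and prostaglandins. In 786O AKR1B10, AKR1C1 and AKR1C3 each fell beyond 2-fold. They were, with HMOX1, the 4 of 10 members that passed with a log2 fold change of at least 1 either way, all lower, where 7.62% of all genes did so, 2.43% higher and 5.19% lower. In CAKi-1 no member reached that log2 fold change of (TPM + 1) and 3.33% of all genes did, 2.21% higher and 1.12% lower, although 3 reached it under other settings. The mean TPM of AKR1B10 fell 2.44-fold there, but with the pseudocount of 1 its value stayed short of that log2 fold change. TXNRD1 and AKR1B10 were both past it without A4KO library 1 (-1.04 and -1.03) and with A4KO libraries 2, 3 and 5 alone (-1.06 and -1.11), TXNRD1 also without WT library 4, AKR1B10 with a pseudocount of 0.1 (-1.33) and AKR1C3, higher, with neighbouring genes subtracted (1.01).

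AKR1B10 was at 2.91, 2.73, 3.04 and 3.17 TPM in CAKi-1 WT and at 2.26, 0.757, 0.986, 1.30 and 0.761 TPM in CAKi-1 A4KO. It was at 21.5, 22.7 and 21.0 TPM in 786O WT and at 5.90, 5.73 and 5.57 TPM in 786O A4KO. Every A4KO library was below every WT library of its line, with CAKi-1 A4KO library 1 the nearest to WT. AKR1B10 fell 2.44-fold in CAKi-1 (log2 fold change -0.88, SE 0.169, limma adjusted p = 0.0034) and 3.79-fold in 786O (log2 fold change -1.75, SE 0.0433, limma adjusted p = 1.1e-06). The log2 fold change in CAKi-1 lay above that in 786O by 0.87 with a pseudocount of 1 (limma adjusted p = 0.0043), but by 0.57 with a pseudocount of 0.1 (limma adjusted p = 0.21), so the difference in size depends on how low values are treated.

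AKR1C3, the prostaglandin F synthase, was the most abundant of the 3 AKR1C transcripts. It was at 94.7, 83.2, 86.7 and 94.8 TPM in CAKi-1 WT and at 226, 132, 118, 185 and 117 TPM in CAKi-1 A4KO. It was at 70.9, 68.3 and 68.2 TPM in 786O WT and at 32.8, 30.7 and 33.7 TPM in 786O A4KO. The groups did not overlap in either line, and the 2 highest CAKi-1 A4KO values came from the libraries that stood apart. AKR1C3 rose 1.73-fold in CAKi-1 (log2 fold change 0.74, SE 0.193, limma adjusted p = 0.015) and fell 2.13-fold in 786O (log2 fold change -1.07, SE 0.0465, limma adjusted p = 7.9e-06). The rise was 0.44 with CAKi-1 A4KO libraries 2, 3 and 5 alone (limma adjusted p = 0.0024). The lines differed by 1.81 in the effect on AKR1C3 (limma adjusted p = 4e-05).

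AKR1C1, the 20-alpha-hydroxysteroid dehydrogenase, passed in 786O and not in CAKi-1. It was at 21.3, 24.2 and 21.9 TPM in 786O WT and at 5.56, 3.36 and 5.11 TPM in 786O A4KO, a 4.81-fold decrease (log2 fold change -2.07, SE 0.156, limma adjusted p = 6.9e-05). In CAKi-1 it was at 8.27, 7.13, 7.07 and 10.2 TPM across WT and 17.5, 8.47, 5.88, 11.8 and 8.02 TPM across A4KO. The CAKi-1 groups overlapped, and the log2 fold change was 0.23 (95% interval -0.35 to 0.81, limma adjusted p = 0.51) with all libraries and -0.12 (limma adjusted p = 0.58) with A4KO libraries 2, 3 and 5 alone. The effects in the 2 lines differed by 2.30 (limma adjusted p = 0.0001).

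AKR1C2, which inactivates dihydrotestosterone, was the lowest of the 10 transcripts in 786O. It was at 1.70, 1.46 and 2.01 TPM in 786O WT and at 1.43, 1.10 and 0.538 TPM in 786O A4KO. These ranges did not overlap, with a log2 fold change of -0.45 (95% interval -0.87 to -0.03, limma adjusted p = 0.062) that depended on single libraries. It was -0.60 without A4KO library 1 (limma adjusted p = 0.023), the highest of its group, and -0.27 without A4KO library 3 (limma adjusted p = 0.090), the lowest. In CAKi-1 it was at 5.58, 5.24, 6.28 and 5.08 TPM across WT and 7.33, 4.66, 3.54, 5.57 and 5.21 TPM across A4KO. These overlapped, with a log2 fold change of -0.09 (95% interval -0.43 to 0.25, limma adjusted p = 0.68). The difference between the lines was 0.36 (95% interval -0.17 to 0.89, limma adjusted p = 0.23).

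Summed over AKR1C1, AKR1C2 and AKR1C3, whose reads are hard to tell apart, the lines again moved in opposite directions. The sum was 104 ± 6.94 TPM (SD, n = 4) in CAKi-1 WT and 171 ± 53.9 TPM (SD, n = 5) in CAKi-1 A4KO, where libraries 1 and 4 reached 251 and 202 TPM and the others 145, 127 and 130 TPM. It was 93.4 ± 1.04 TPM (SD, n = 3) in 786O WT and 38.1 ± 2.58 TPM (SD, n = 3) in 786O A4KO. All CAKi-1 A4KO sums were above the highest CAKi-1 WT sum of 110 TPM, and all 786O A4KO sums below 786O WT. AKR1C3 made up 86.1% to 87.2% of the sum in CAKi-1 WT and 89.8% to 92.6% in CAKi-1 A4KO. Its share in 786O was 72.7% to 75.5% in WT and 82.5% to 87.3% in A4KO, as AKR1C1 fell further than AKR1C3.

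**Figure D3:**
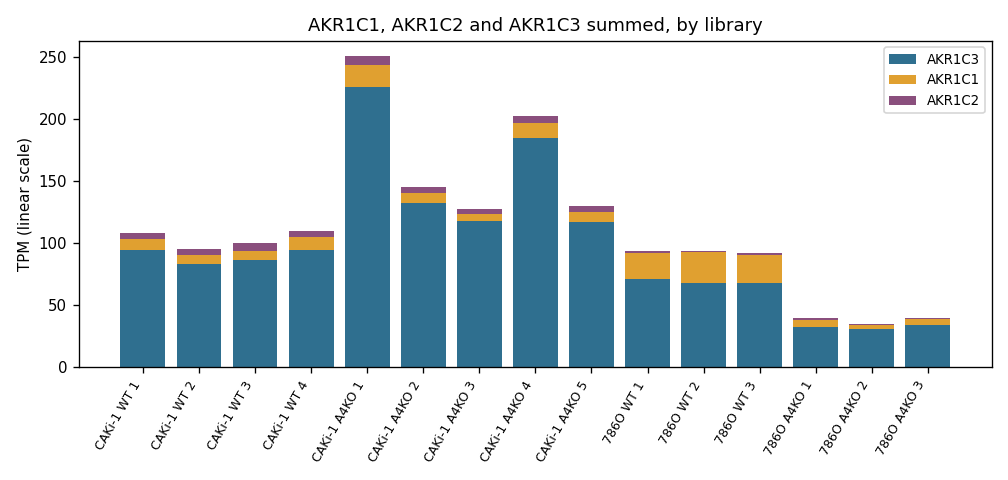
Stacked bars of AKR1C3, AKR1C1 and AKR1C2 in each library, in TPM from 0. The sum is 95.6 to 110 TPM in CAKi-1 WT and 127 to 251 TPM in CAKi-1 A4KO, and 92.2 to 94.0 TPM in 786O WT and 35.1 to 39.8 TPM in 786O A4KO.

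Ordered by mean TPM, NQO1 and TXNRD1 led in every group. NQO1 came first in CAKi-1 WT, where its range overlapped that of TXNRD1, in CAKi-1 A4KO and in 786O WT, where it did not, and TXNRD1 came first in 786O A4KO. HMOX1 stood in place 3 in 786O WT and in place 6 in 786O A4KO, below AKR1C3, which stood in place 4 and place 5. In CAKi-1 AKR1C3 and HMOX1 held places 3 and 4 in both groups. The ranges of TXNRD1 and AKR1C3 overlapped in CAKi-1 A4KO, as did those of SRXN1 and GCLC, of GCLM and AKR1C1 and of AKR1C1 and AKR1C2. GCLM and GCLC overlapped in CAKi-1 WT and did not in the other groups, and AKR1C1 overlapped its neighbours GCLC and AKR1B10 in 786O WT.

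Transcripts of the regulators gave no single direction. Of the 13 genes listed as regulators of the pathway, 3 rose and 0 fell in CAKi-1 (median log2 fold change 0.06), and 6 rose and 3 fell in 786O (median 0.11). Over all genes 39.0% passed in CAKi-1 and 61.0% in 786O. Though 0 fell in CAKi-1 by limma with adjustment, 3 were lower there at an unadjusted limma p under 0.05, among them SQSTM1 (exact permutation p = 0.0159) and BTRC (exact permutation p = 0.0476). NFE2L2 passed in neither line with the main settings. It was at 90.1, 85.5, 87.7 and 93.9 TPM in CAKi-1 WT and at 93.4, 86.9, 90.4, 90.7 and 85.5 TPM in CAKi-1 A4KO, which overlapped. It was at 92.9, 87.3 and 87.5 TPM in 786O WT and at 83.5, 83.8 and 84.6 TPM in 786O A4KO, a difference of -0.09 (limma adjusted p = 0.10, and 0.049 with the trend and robust options).

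KEAP1, the inhibitor of NRF2, rose in 786O from 65.7, 60.1 and 62.6 TPM in WT to 86.2, 89.6 and 87.3 TPM in A4KO (log2 fold change 0.48, SE 0.0446, limma adjusted p = 0.00018). In CAKi-1 it lay at 66.5 to 72.6 TPM across WT and 67.2 to 76.9 TPM in A4KO, which overlapped (log2 fold change 0.07, limma adjusted p = 0.36, and 0.17 with a limma adjusted p of 0.046 after quantile normalization). The difference between the lines was -0.41 (limma adjusted p = 0.00032). SQSTM1, whose product sequesters KEAP1 and is itself an NRF2 target, rose from 490, 492 and 450 TPM to 656, 638 and 675 TPM in 786O (0.46, limma adjusted p = 0.00033). In CAKi-1 it was at 1110 to 1499 TPM across WT and 860 to 1099 TPM in A4KO without overlap, with a log2 fold change of -0.31 and a limma adjusted p of 0.051 (0.022 with A4KO libraries 2, 3 and 5 alone), and the lines differed by -0.77 (limma adjusted p = 0.00058). CUL3 passed in neither line (0.01 in CAKi-1 and -0.07 in 786O), except that it was higher in 786O with neighbouring genes subtracted (0.11, limma adjusted p = 0.030). RBX1 fell in 786O by 0.31 (limma adjusted p = 0.0018) but only by 0.08 with neighbouring genes subtracted (limma adjusted p = 0.26).

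The small MAF genes encode the partners of NRF2 and of BACH1. MAFG rose in 786O from 23.9, 24.0 and 24.1 TPM to 44.1, 44 and 45.1 TPM (log2 fold change 0.86, SE 0.0325, limma adjusted p = 4.7e-06), and its change in CAKi-1 was 0.06. MAFF and MAFK rose in both lines, by 0.48 and 0.27 in CAKi-1 and by 0.45 and 0.27 in 786O. BACH1, the repressor of HMOX1, rose as well, from 10.3 to 16.4 TPM in WT to 15.6 to 28.1 TPM in A4KO of CAKi-1 (0.65, limma adjusted p = 0.038) and from 11.1, 13.2 and 11.8 TPM to 14.1, 14.7 and 16.4 TPM in 786O (0.30, limma adjusted p = 0.016). These 3 calls in CAKi-1 depended on single libraries. With single libraries left out, the MAFF call was lost in 7 of 9 cases, all but those without WT library 4 or A4KO library 5, the MAFK call in 6 of 9 cases (WT libraries 1, 3 and 4 and A4KO libraries 1, 2 and 4) and the BACH1 call in 5 of 9 cases (WT libraries 1, 2 and 3 and A4KO libraries 1 and 4), with changes of 0.34 to 0.62, 0.24 to 0.34 and 0.52 to 0.78. With A4KO libraries 2, 3 and 5 alone none of the 3 passed in CAKi-1, at 0.41 for MAFF (limma adjusted p = 0.11), 0.19 for MAFK (limma adjusted p = 0.11) and 0.35 for BACH1 (limma adjusted p = 0.093), and MAFF was also lost with neighbouring genes subtracted (0.36, limma adjusted p = 0.076). The BACH1 call in 786O was lost without WT library 1 or WT library 3 (limma adjusted p = 0.051 in both cases). Of the related factors, NFE2L1 passed in neither line with the main settings (0.17 and 0.01), but passed, higher, in CAKi-1 after quantile normalization (0.26, limma adjusted p = 0.030) and without WT library 4 (0.22, limma adjusted p = 0.033), and, lower, in 786O with neighbouring genes subtracted (-0.15, limma adjusted p = 0.019). NFE2L3 fell in 786O from 45.9, 46.4 and 46.5 TPM to 26.6, 27.4 and 29.1 TPM (-0.72, limma adjusted p = 2.6e-05), against 0.18 in CAKi-1 (0.32 with A4KO libraries 2, 3 and 5 alone, limma adjusted p = 0.0021). GSK3B and BTRC, which act in a second route of NRF2 degradation, changed by -0.16 and -0.16 in CAKi-1 and by -0.24 and 0.11 in 786O, of which GSK3B in 786O passed (limma adjusted p = 0.018, and 0.056 without A4KO library 1). Single libraries left out also gave calls. In CAKi-1 GSK3B passed without WT library 1 (-0.22, limma adjusted p = 0.027) and BTRC without A4KO library 4 (-0.20, limma adjusted p = 0.038). BTRC passed in 786O without WT library 2 (0.18, limma adjusted p = 0.038).

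Of the other genes described as NRF2 targets, 43 were in the CAKi-1 table, of which 19 fell, 3 rose and 21 did not pass (median log2 fold change -0.21, beside -0.01 over all genes, of which 21.1% fell and 17.9% rose). In 786O, of 42 in the table, 18 fell, 14 rose and 10 did not pass (median -0.04, beside -0.03 over all genes, of which 33.5% fell and 27.5% rose). Of the 42 in both tables, 9 passed in opposite directions, beside 16.0% of all genes, and 6 in the same direction, beside 12.0%. The 9 were GSR, SLC3A2, MGST1, UGT1A6, ALDH1A1, OSGIN1 and PIR, lower in CAKi-1 and higher in 786O, and PTGR1 and ABCC3, higher in CAKi-1 and lower in 786O. Those that fell in both lines included ME1 and IDH1, which make NADPH, UGDH, TRIM16 and NR0B1. Neighbouring genes of OSGIN1 had a median change of 0.29 in 786O, beside 0.27 for OSGIN1 itself, and of -0.25 in CAKi-1, beside -0.65. The rise of OSGIN1 in 786O was thus no larger than that of its neighbours.

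UGT1A6, a glucuronosyltransferase, had the widest split of all the listed genes. It went from 55.2, 47.4, 50.3 and 43.3 TPM in WT to 9.87, 5.24, 6.67, 7.90 and 5.47 TPM in A4KO of CAKi-1, and from 144, 139 and 144 TPM to 322, 336 and 348 TPM in 786O. The log2 fold changes of UGT1A6 were -2.67 (limma adjusted p = 8.5e-06) and 1.23 (limma adjusted p = 3.6e-06). However, 60% of its 31-base words occur in UGT1A3, since the genes of the UGT1A locus share their last exons, so the member of the locus is uncertain. ALDH1A1, the retinal dehydrogenase, went from 117 to 191 TPM in WT to 70.4 to 86.0 TPM in A4KO of CAKi-1 (-0.96, limma adjusted p = 0.00046) and from 76.7, 74.1 and 75.6 TPM to 435, 449 and 446 TPM in 786O (2.54, limma adjusted p = 1.6e-07).

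GSTP1, a glutathione transferase, rose in 786O from 4.16, 3.19 and 4.89 TPM to 24.7, 26.7 and 24.7 TPM (2.39, limma adjusted p = 1.4e-05), with a change of 0.05 in CAKi-1 (limma adjusted p = 0.65). SLC7A11, the cystine carrier that feeds glutathione synthesis, fell in 786O from 11.8, 11.4 and 10.9 TPM to 5.15, 5.00 and 4.91 TPM (-1.04, limma adjusted p = 5.8e-06), with a change of -0.09 in CAKi-1. Its partner chain SLC3A2 moved otherwise, from 181 to 92.6 TPM on average in CAKi-1 (limma adjusted p = 0.00064) and from 241 to 389 TPM in 786O (limma adjusted p = 1.6e-05). GSR, glutathione reductase, changed by -0.45 in CAKi-1 and by 0.31 in 786O. The efflux pump ABCC2 rose in 786O by 1.63 (limma adjusted p = 6.8e-06), with a change of -0.29 in CAKi-1. ABCC3, another such pump, rose in CAKi-1 from 91.6, 92.4, 104 and 122 TPM to 347, 142, 134, 308 and 144 TPM (0.94, limma adjusted p = 0.036) and fell in 786O by 1.22 (limma adjusted p = 4.9e-05). With A4KO libraries 2, 3 and 5 alone the change of ABCC3 in CAKi-1 was 0.45 (limma adjusted p = 0.011). Its call in CAKi-1 was lost in 5 of 9 cases with a single library left out, namely WT libraries 1, 2 and 3 and A4KO libraries 1 and 4, with changes of 0.74 to 1.08.

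FTH1, the ferritin heavy chain that stores the iron released by heme oxygenase, rose in CAKi-1 from 4807, 4949, 5943 and 8180 TPM to 17954, 10296, 8780, 19297 and 11441 TPM (1.15, limma adjusted p = 0.0077), with a change of 0.12 in 786O (limma adjusted p = 0.13) that was -0.12 after quantile normalization (limma adjusted p = 0.043) and 0.19 with neighbouring genes subtracted (limma adjusted p = 0.022). The highest CAKi-1 A4KO values of FTH1, 17954 and 19297 TPM, came from libraries 1 and 4, which stood apart. Of the 31-base words of FTH1, 51.9% occur in another gene, most often the pseudogene FTH1P10. TRIM16 and NR0B1, a ubiquitin ligase and an orphan nuclear receptor, fell in CAKi-1 by 0.65 and 0.70 and in 786O by 1.12 and 1.44. Of the 31-base words of TRIM16, 67.5% occur in another gene, most often TRIM16L, so its value is uncertain too. TRIM16 lay among genes with a median change of -0.47 in 786O.

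**Figure D4:**
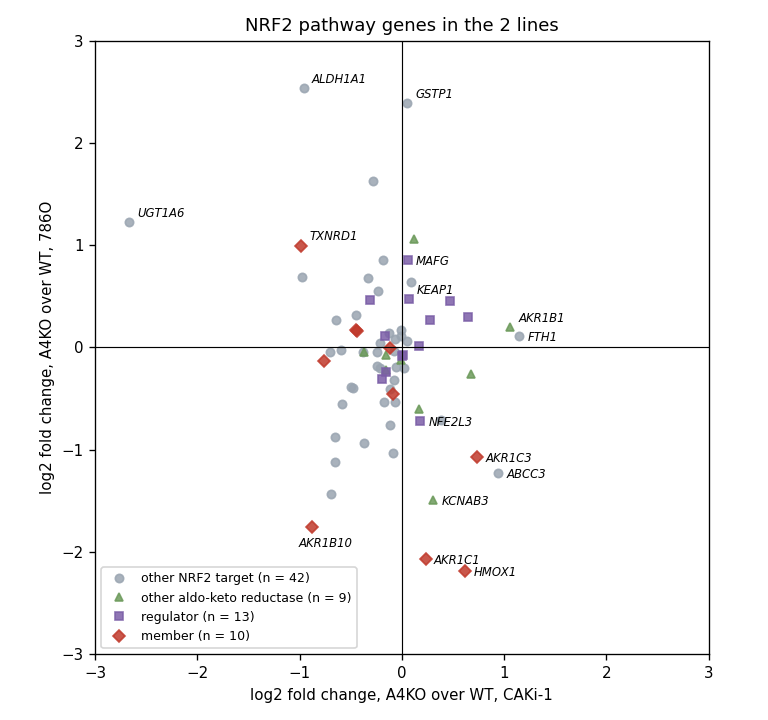
Log2 fold change, A4KO over WT, in CAKi-1 (horizontal) and 786O (vertical) for the genes in both tables, with diamonds for the 10 members, squares for 13 regulators, circles for 42 other NRF2 targets and triangles for 9 other aldo-keto reductases. UGT1A6, ALDH1A1 and TXNRD1 lie at the upper left, lower in CAKi-1 and higher in 786O, and HMOX1, AKR1C3 and ABCC3 at the lower right.

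Of the other aldo-keto reductases, 11 were in the CAKi-1 table, where 2 rose and 1 fell (median 0.05, with 39.0% of all genes passing), and 10 in the 786O table, where 2 rose and 3 fell (median -0.15, with 61.0% of all genes passing). AKR1B1, the aldose reductase, rose in both lines, from 591, 675, 844 and 1468 TPM to 2026, 1702, 1625, 1832 and 1586 TPM in CAKi-1 (1.06, limma adjusted p = 0.0064) and from 3228, 3293 and 3276 TPM to 3704, 3718 and 3803 TPM in 786O (0.20, limma adjusted p = 0.0025, and 0.08 with a limma adjusted p of 0.13 with neighbouring genes subtracted). It was by far the most abundant gene of the family in both lines, and AKR1B10, its close paralog, fell in both. AKR1A1, the aldehyde reductase, rose in CAKi-1 by 0.67 (limma adjusted p = 0.00014) and fell in 786O by 0.26 (limma adjusted p = 0.0016). Of the potassium channel beta subunits, which share the fold, KCNAB2 rose in 786O by 1.06 (limma adjusted p = 2.2e-05) and KCNAB3 fell there by 1.49 (limma adjusted p = 2.1e-05). Neither passed in CAKi-1 with the main settings (0.12 and 0.31). Higher there were KCNAB3 without WT library 3 (0.41, limma adjusted p = 0.029) and KCNAB2 with neighbouring genes subtracted (0.43, limma adjusted p = 0.030). Neighbours of KCNAB3 had a median change of -0.55 in 786O.

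Over all members, the effect differed between the lines for 8 of 10, where 55.1% of the 15247 genes differed. GCLC and AKR1C2 were the exceptions, and among the settings tried they passed only with neighbouring genes subtracted. The log2 fold change was higher in CAKi-1 for 4, namely HMOX1, AKR1C1, AKR1C3 and AKR1B10, and lower for 4, namely TXNRD1, GCLM, SRXN1 and NQO1, against 28.8% and 26.3% of all genes. For 4 of the 10 the difference was also at least 1 in size, with HMOX1, AKR1C1 and AKR1C3 higher and TXNRD1 lower, against 12.8% of all genes, 7.95% higher and 4.87% lower. The lines differ in many ways besides VHL, and each line has its own table, so VHL status, line and any difference in the making of the tables cannot be told apart here.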

How the data were processed

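RNA of untreated CAKi-1 and 786O cells was made into poly(A) libraries and sequenced as 150-base paired reads. Per the study's methods and notes, the authors pseudoaligned them to hg38 with kallisto and tested them with limma (versions not given in the sources used here). The deposited values were read as gene-level TPM, since they sum to 961437 to 973887 in CAKi-1 and 969146 to 970954 in 786O. The labels give 3000000 reads per sample, but the files hold no read counts, so the depth of each library was not computed. Tests between the 2 tables used fold changes only, and levels were set side by side or correlated over both without a test.

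For each line, limma 3.58.1 in R 4.3.3 was fitted to log2(TPM + 1) of all genes without a filter, with Benjamini-Hochberg adjustment over all genes. Such fold changes understate changes of low genes. The line-by-genotype interaction was fitted over the 15247 shared genes, and exact two-sided permutation tests were run per gene. Alternatives were a pseudocount of 0.1, a mean of at least 1 TPM, quantile normalization, the trend and robust options, a replicate block, values centred on up to 25 neighbours per side, CAKi-1 A4KO libraries 2, 3 and 5 alone, single libraries left out and a log2 fold threshold of 1. The code was tested on simulated data. Positions and transcripts came from GENCODE 44. Named by rule were the members, the regulators and the listed genes passing that fold threshold in either line. Listed genes passing in both lines and AKR1A1 were named after their values were seen. The members and lists were chosen with earlier results of these data known.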

Additional observations from a re-analysis of the deposited data

Results flagged for a closer look

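In a group of 4 to 10 libraries, a value was singled out where it lay far from the rest by Dixon's criterion, which chance meets in about 1 in 20 groups. Of 72 groups of named genes tested, 2 met it, both through CAKi-1 WT library 4, for HMOX1 at 60.5 TPM and for SQSTM1 at 1499 TPM. Without that library the CAKi-1 calls of both genes kept their direction and their side of the threshold.

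The effect of the knockout differed between the lines, by the interaction term of limma, for 26 of 36 named genes, beside 55.1% of all genes. Many of the 36 were named for a large change in one line, which favours a difference. As the log2 fold change in CAKi-1 minus that in 786O, the difference was -1.97 for TXNRD1, -0.61 for SRXN1, -0.61 for NQO1 and -0.63 for GCLM. It was 2.81 for HMOX1, 2.30 for AKR1C1, 1.81 for AKR1C3 and 0.87 for AKR1B10. ANGPTL4 itself differed by -1.27. Among regulators the difference was 0.90 for NFE2L3, -0.41 for KEAP1, -0.80 for MAFG, -0.77 for SQSTM1 and -0.28 for BTRC. For the other targets it was -3.90 for UGT1A6, -3.50 for ALDH1A1, -2.33 for GSTP1, -1.91 for ABCC2, 2.17 for ABCC3, 1.03 for FTH1, 0.95 for SLC7A11, 0.74 for NR0B1 and 0.46 for TRIM16. For the other reductases it was 0.86 for AKR1B1 (0.69 after quantile normalization and 0.77 with A4KO libraries 2, 3 and 5 alone, neither of which passed), -0.95 for KCNAB2 and 1.80 for KCNAB3. With neighbouring genes subtracted, the differences of NQO1, BTRC and TRIM16 no longer passed, and those of GCLC (-0.40, limma adjusted p = 0.034) and AKR1C2 (0.66, limma adjusted p = 0.050), which otherwise did not, passed. That of BTRC was also lost in 7 of 15 cases with a single library left out (CAKi-1 WT 2 and 3, CAKi-1 A4KO 1 and 2, 786O WT 1 and 3 and 786O A4KO 2). That of AKR1B1 was lost with quantile normalization (limma adjusted p = 0.079), with CAKi-1 A4KO libraries 2, 3 and 5 alone (0.066) and without CAKi-1 WT library 2 (0.053), and that of AKR1B10 with a pseudocount of 0.1 (0.21).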

How the results depend on the processing

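In CAKi-1, 155 of 160 alternative values of the members kept their direction and their side of the threshold, in 786O 104 of 120, and for the difference between the lines 215 of 220. With a log2 fold change of at least 1 also required, 0 members in CAKi-1, 4 in 786O and 4 for the difference passed, and 3 and 10 listed genes. The pseudocount of 0.1 raised the genes passing with that fold from 543 to 1077 in CAKi-1, from 1233 to 2095 in 786O and from 1954 to 3005 for the difference. Quantile normalization moved the share of such genes that were higher in 786O from 31.9% to 42.7%, and the limma adjusted p of NQO1 in CAKi-1 to 0.053.

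Reversed with neighbouring genes subtracted were, in CAKi-1, AKR1C2 (0.19), NFE2L2 (-0.069), KEAP1 (-0.11), CUL3 (-0.054) and BTRC (0.0063), and in 786O NQO1 (-0.23), GCLC (0.25), NFE2L2 (0.10), NFE2L1 (-0.15) and CUL3 (0.11). Quantile normalization reversed GCLC (0.029), NFE2L1 (-0.0030) and FTH1 (-0.12) in 786O. With A4KO libraries 2, 3 and 5 alone, AKR1C1 (-0.12), NFE2L2 (-0.027) and KCNAB2 (-0.055) reversed in CAKi-1. The causes were not tested. With single libraries left out, the reversals lay in AKR1C2 (-0.20 to 0.020), NFE2L2 (-0.0185 to 0.0257) and CUL3 (-0.0355 to 0.0401) in CAKi-1, GCLC (-0.14 to 0.061) and NFE2L1 (-0.0036 to 0.034) in 786O and the difference of GCLC (-0.18 to 0.016).

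No pairing of libraries by replicate number was seen (correlations of deviations -0.062 to 0.135 in CAKi-1 and -0.046 to 0.020 in 786O), although so few libraries cannot exclude one. The fit with a replicate block gave 7 passing members in CAKi-1, 6 in 786O, where NQO1 had a limma adjusted p of 0.063, and 8 for the difference, with 25 and 43 listed genes, and it reversed CUL3 in CAKi-1 (-0.0355). In 786O, GCLM (limma adjusted p = 0.046 and 0.035) and AKR1C2 (0.049 and 0.050) passed with the filter on low values and with the trend and robust options, while GCLM was at -0.018 with neighbouring genes subtracted (limma adjusted p = 0.77). In CAKi-1, SQSTM1 passed, lower, under these (limma adjusted p = 0.044 and 0.046), with the block (0.047) and with A4KO libraries 2, 3 and 5 alone (0.022). NFE2L2 passed, lower, in 786O with the trend and robust options (0.049). Among listed genes that gained a call were, with neighbouring genes subtracted GSTP1 (0.28) and KCNAB2 (0.43) in CAKi-1, and after quantile normalization NFE2L1 (0.26) in CAKi-1 and BTRC (0.30) in 786O, while AKR1B1 (0.077) and RBX1 (-0.080) in 786O lost theirs with neighbouring genes subtracted. At the stated 3000000 reads per sample, low transcripts such as AKR1C2 and AKR1B10 rest on few reads, and their counting error could not be computed from TPM.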

Other observations

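Some transcripts followed single members closely over all 15 libraries. Among 8604 genes with a mean of at least 10 TPM, the highest Pearson correlations of log2(TPM + 1) with HMOX1 were those of SYT12 (0.991), PPARD (0.984) and RPS4X (0.982). For NQO1 they were PI4KB (0.983), BRAP (0.983) and SH3PXD2B (0.982), and for AKR1C1 RNF181 (0.952), SGSM2 (0.952) and RGL2 (0.941). The libraries fall into 4 groups and share their group differences, so these values describe the group pattern and carry no p.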
